A study of Mus musculus with 28 samples.

Results

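The aminoacyl-tRNA synthetases are the enzymes that join each amino acid to its transfer RNA. Their genes were followed here in mouse CD4+ T cells before and after stimulation through the T cell receptor. They were chosen by name, as the genes whose single symbol on the array platform is that of a listed synthetase or the same symbol with a final 1 (Mars is listed there as Mars1). Of 36 listed genes, 32 were measured among 17097 genes in all, 17 of 20 coding for cytosolic and 15 of 16 for mitochondrial enzymes. Cars, Dars, Tars and Yars2 were not analysed here, because no probe set with a single symbol matched them.

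Female mice aged 12 weeks gave the cells, which were all CD4+ cells of the spleen, and 3 strains were used. The strain C57BL/6 served as reference. B6.Sle1b carries on the same background a lupus-linked interval of chromosome 1 that includes the SLAM family of lymphocyte receptors. Sle1b.BACSlamf6-H1 is that congenic strain with an added bacterial artificial chromosome named for the H1 form of the receptor Slamf6. Cells were unstimulated or had been kept for 4 h or 24 h on plates coated with 0.1 µg/ml of antibody to CD3, the signalling part of the T cell receptor, and no second antibody is named in the labels. All groups share the C57BL/6 background and the same culture medium, and the labels name no treatment of the mice. The labels give no time in culture for the unstimulated cells, and no group was kept for 4 h or 24 h without the antibody. A change after anti-CD3 therefore cannot be told apart from one with time in culture. The 9 groups of strain and time held 3 biological arrays each, except C57BL/6 at 24 h, which held 2, so that 26 arrays entered the comparisons. Another 2 arrays of C57BL/6 at 24 h are labelled technical and were kept apart.

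Cytosolic synthetases supply charged transfer RNA to the ribosomes that translate nuclear genes. Kars and Gars, counted here as cytosolic, each code for both the cytosolic and the mitochondrial enzyme, which the arrays do not separate. Some cytosolic enzymes sit together in a multisynthetase complex held by scaffold proteins. Mitochondrial synthetases are encoded in the nucleus, imported, and charge the transfer RNA used to translate the few proteins encoded by mitochondrial DNA. A resting T cell makes little protein, and stimulation through its receptor starts growth and protein synthesis before the first division. When charged transfer RNA runs short, the kinase Gcn2 (gene Eif2ak4) slows general translation and favours that of the transcription factor ATF4, whose known targets include several synthetase genes.

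RNA was measured on Affymetrix HT MG-430 PM arrays, and all gene and marker values below are log2 intensities or differences between them. On the linear scale, median intensities ran from 9.06 to 10.5 over the 28 arrays. The background, read from non-specific control probe sets, lay at a log2 intensity of 2.76 to 3.21. Of the 32 genes, 29 were above background on all 26 arrays. The exceptions were Mars2 (above it on 1 array), Fars2 (4 arrays) and Sars2 (24 arrays). Averaged over the 6 measured markers of CD4+ T cells, arrays lay between 8.73 and 9.35, against 3.82 to 4.36 for the markers of CD8+ T cells and 2.71 to 3.29 for those of NK cells. Markers of dendritic cells lay between 3.11 and 3.61, and those of monocytes and macrophages between 3.30 and 4.21. Other lists reached higher: B cells 4.39 to 5.49, neutrophils 2.89 to 6.14 and erythroid cells 4.99 to 7.52. Measures of brightness differed between the times in opposite directions: the linear 75th percentile had a median over arrays of 48.1 unstimulated, 43.9 at 4 h and 41.9 at 24 h, and the linear median intensity one of 9.28, 9.58 and 9.59. The 3 dim arrays named below are those with the lowest 75th percentile outside the 24 h groups (34.2 to 35.6): replicate 2 of unstimulated C57BL/6, replicate 3 of unstimulated B6.Sle1b and replicate 2 of Sle1b.BACSlamf6-H1 at 4 h. A 24 h array of B6.Sle1b read nearly the same (35.6), and by median intensity these 3 arrays were the highest of all. Arrays were scaled to one another and total RNA per cell was not measured, so a difference is relative to the other transcripts of the array. In a bulk sample, fewer cells of a type and less RNA per cell cannot be told apart.

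After 24 h of anti-CD3, most synthetase genes were higher than in unstimulated cells. Over the mean of the 3 strains, 23 of the 32 rose and 1 fell, where 40.4% of all genes tested were called, 22.9% as higher and 17.4% as lower. A gene was called where its adjusted p in limma, by Benjamini-Hochberg over all genes, was under 0.05. The rise took in 15 of 17 cytosolic genes, and 8 of 15 mitochondrial ones. The median difference was 1.09 over the cytosolic genes and 0.43 over the mitochondrial genes, beside 0.06 over all genes tested. At 4 h the picture was mixed: 8 genes rose and 2 fell (18.2% of all genes were called, 8.15% as higher and 10.1% as lower), and the median difference was 0.13 over the cytosolic and -0.02 over the mitochondrial genes, beside 0.02 over all genes.

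**Figure D1:**
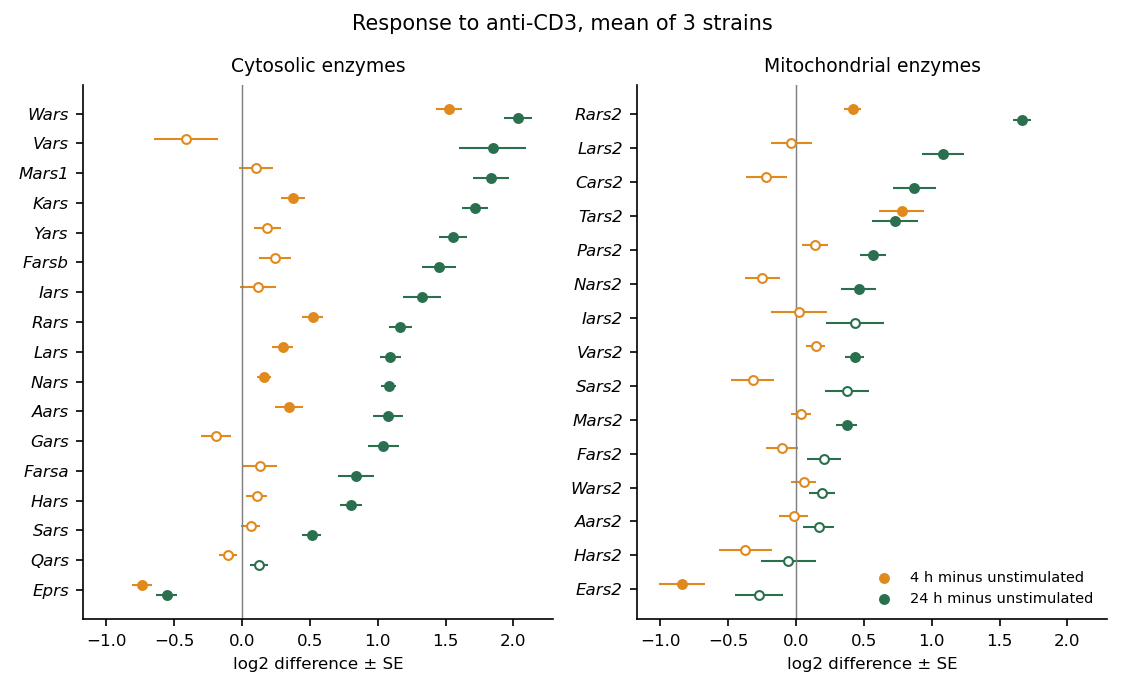
The plot gives the log2 difference from unstimulated cells, with its standard error, at 4 h (orange) and 24 h (green) for each of the 32 genes as the mean of the 3 strains; filled points were called by limma and open points were not. Most green points lie to the right of 0 and of their orange partner, Wars is already at 1.52 at 4 h, and Eprs lies left of 0 at both times.

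The genes can be sorted by their calls at both times. Wars, Rars, Kars, Aars, Lars, Nars, Rars2 and Tars2 were higher at 4 h and at 24 h, though at 4 h the Nars call was lost in 13 of 38 other settings, that of Aars in 3 and that of Lars in 1. Another 15 were called higher at 24 h but were not called at 4 h: Farsa, Farsb, Gars, Hars, Iars, Mars1, Sars, Vars and Yars among the cytosolic, and Cars2, Lars2, Mars2, Nars2, Pars2 and Vars2 among the mitochondrial. Qars, Aars2, Fars2, Hars2, Iars2, Sars2 and Wars2 were called at neither time. Ears2 was lower at 4 h and not called at 24 h, and Eprs was lower at both times.

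Wars, the cytosolic tryptophanyl-tRNA synthetase, whose gene is also known to respond to interferon gamma, had the largest rise of the 32 genes at both times. The unstimulated arrays read 5.89, 5.11 and 5.54 in C57BL/6, 5.94, 5.69 and 5.57 in B6.Sle1b, and 5.91, 5.64 and 5.69 in Sle1b.BACSlamf6-H1. At 4 h they read 7.44, 7.33 and 7.26 in C57BL/6, 7.35, 7.30 and 7.06 in B6.Sle1b, and 7.27, 6.66 and 7.03 in Sle1b.BACSlamf6-H1. At 24 h they read 7.73 and 7.79 in C57BL/6, 7.45, 7.74 and 7.69 in B6.Sle1b, and 7.73, 7.78 and 7.61 in Sle1b.BACSlamf6-H1. Every array at 4 h was above every unstimulated array, and every array at 24 h was above every array at 4 h. The rise was 1.52 ± 0.10 (SE; limma adjusted p = 8.54e-11), or 2.88-fold, at 4 h, and 2.03 ± 0.10 (adjusted p = 1.72e-13), or 4.09-fold, at 24 h. The Wars set used has a suffix, x_at, that Affymetrix gives to sets with probes shared with other sequences, but the other Wars sets rose as well at 24 h, by 1.97 and 1.88.

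A second pattern was a rise that was called only after 4 h. Mars1, the cytosolic methionyl-tRNA synthetase, lay between 6.38 and 7.29 on the 9 unstimulated arrays, with a median of 7.14. At 4 h it lay between 6.61 and 7.42, with a median of 7.22, and the difference of 0.10 ± 0.13 was not called. At 24 h it lay between 8.72 and 9.02, with no overlap with either earlier time, 1.84 ± 0.13 above unstimulated cells (adjusted p = 7.61e-11), or 3.57-fold. Vars, the valyl-tRNA synthetase, lay between 4.39 and 6.65 in unstimulated cells, 4.91 and 6.04 at 4 h and 7.57 and 7.91 at 24 h. The rise was 1.85 ± 0.25 against unstimulated cells (adjusted p = 1.38e-06) and 2.26 ± 0.25 against 4 h (adjusted p = 9.29e-08), the largest of any synthetase between 4 h and 24 h. The lowest unstimulated value of Vars came from 1 dim array, replicate 2 of C57BL/6. Its 4 h difference of -0.41 was not called but passed the test as a fall under 3 other settings, leaving out that array among them, with values down to -0.73.

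Kars, the lysyl-tRNA synthetase, rose in steps. Its unstimulated arrays had a median of 7.97 and lay between 7.55 and 8.35. The 4 h arrays had a median of 8.37, between 7.89 and 8.71, and overlapped with them. The 24 h arrays, between 9.51 and 9.76, were above all others. Kars was 0.37 ± 0.09 higher at 4 h (limma adjusted p = 0.00443) and 1.72 ± 0.09 higher at 24 h (adjusted p = 1.01e-12), or 3.28-fold. Rars, the arginyl-tRNA synthetase, rose by 0.52 ± 0.08 at 4 h (adjusted p = 3.22e-05) and by 1.17 ± 0.08 at 24 h, and Aars and Lars, for alanine and leucine, reached 1.08 and 1.09 at 24 h. Yars, the tyrosyl-tRNA synthetase, was among the late genes. It had medians of 6.22, 6.37 and 7.69 at the 3 times and rose by 1.37 ± 0.10 between 4 h and 24 h (adjusted p = 2.73e-10).

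**Figure D2:**
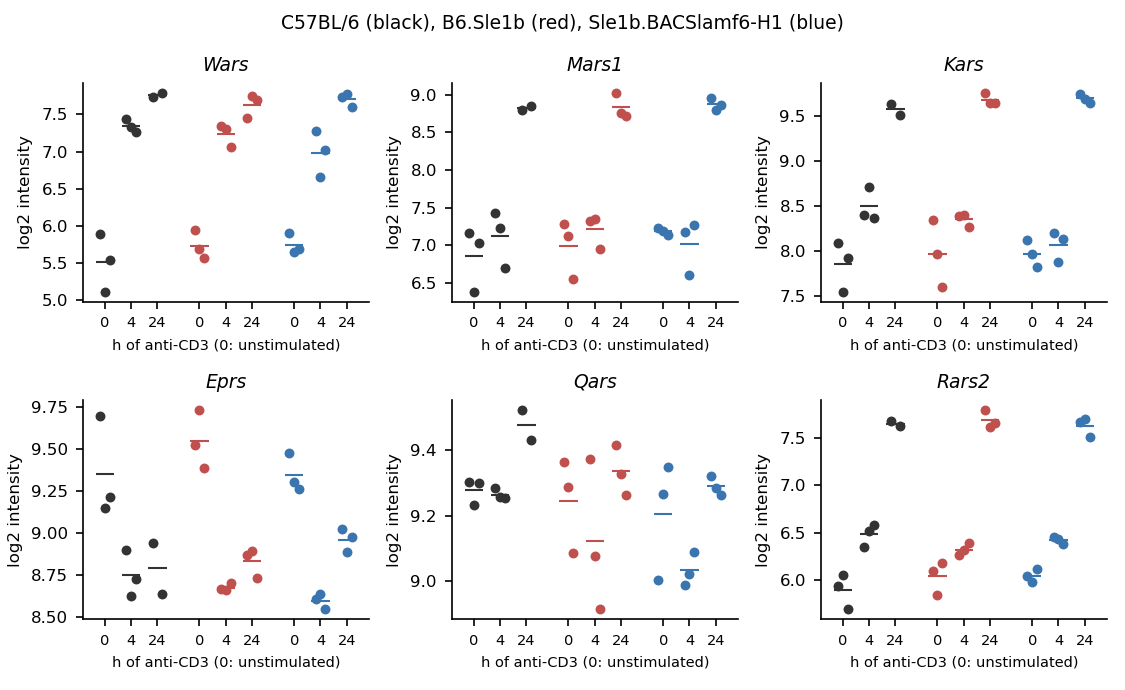
Log2 intensity on each biological array is drawn for Wars, Mars1, Kars, Eprs, Qars and Rars2 against hours of anti-CD3, with a line at each group's mean, for C57BL/6 (black), B6.Sle1b (red) and Sle1b.BACSlamf6-H1 (blue). Wars is up at 4 h, Mars1 only at 24 h, Kars in steps, Eprs is below its unstimulated values at both times, and Qars stays between 8.92 and 9.52.

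The remaining cytosolic genes that rose at 24 h were Farsb (1.45), Iars (1.33), Nars (1.08), Gars (1.04), Farsa (0.84), Hars (0.80) and Sars (0.51). Gars and Iars, for glycine and isoleucine, had medians of 8.26 and 7.90 in unstimulated cells and 9.20 and 9.07 at 24 h. Farsa and Farsb code for the 2 subunits of one enzyme, phenylalanyl-tRNA synthetase, and their probe sets disagreed. The brightest sets of both rose, as did a second Farsb set (1.54), but a dimmer Farsb set fell by 0.88 and a dimmer Farsa set fell by 0.35, both above background on all 26 arrays and called over all probe sets (limma adjusted p = 3.23e-05 and 0.016). The last Farsa set differed by -0.22 and was not called, so that 1 of 3 Farsa sets was higher. With the mean of all its sets in place of the brightest, Farsa differed by 0.09 at 24 h and was no longer called. Cars2, Ears2 and Qars also had sets of the opposite sign at 24 h, none of them both called and above background on all arrays.

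Eprs was the exception among the cytosolic genes. It codes for an enzyme with 2 activities in one chain, charging the transfer RNAs for glutamate and for proline, and is part of the multisynthetase complex. Unstimulated arrays read 9.70, 9.15 and 9.21 in C57BL/6, 9.53, 9.73 and 9.39 in B6.Sle1b, and 9.48, 9.31 and 9.26 in Sle1b.BACSlamf6-H1. Arrays at 4 h read 8.90, 8.63 and 8.73, then 8.67, 8.66 and 8.70, then 8.61, 8.64 and 8.55 in the same order of strains. Arrays at 24 h read 8.94 and 8.64, then 8.87, 8.89 and 8.73, then 9.03, 8.89 and 8.98. No stimulated array reached the lowest unstimulated one. Eprs fell by 0.74 ± 0.07 at 4 h (limma adjusted p = 1.17e-07), or 1.67-fold, and by 0.56 ± 0.08 at 24 h (adjusted p = 2.68e-06), or 1.47-fold, and the 0.19 between 4 h and 24 h was not called. All 4 Eprs probe sets fell at both times, at 24 h by 0.56, 0.70, 0.76 and 1.98, the last from a set above background on 16 of 26 arrays. Between 4 h and 24 h the other 3 sets had the opposite sign to the set used, and 0 of them were both called and above background on all arrays.

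Qars, the glutaminyl-tRNA synthetase, was the other cytosolic gene that did not rise against unstimulated cells. It had medians of 9.29, 9.09 and 9.32 at the 3 times, and its 24 h difference of 0.12 ± 0.07 (95% interval -0.01 to 0.26) was not called. It was called higher at 24 h than at 4 h, by 0.23 ± 0.07 (limma adjusted p = 0.00902), though not with the mean of all its probe sets (adjusted p = 0.0817).

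Eprs and Qars both belong to the multisynthetase complex, and this grouping was made after their values had been seen. Of the 7 measured enzymes of the complex (Eprs, Iars, Kars, Lars, Mars1, Qars and Rars), 5 rose at 24 h, 1 fell and 1 was not called, with a median of 1.17. All 10 other cytosolic genes rose, with a median of 1.08, where 22.9% of all genes were called higher and 17.4% lower. The 3 scaffold genes of the complex rose at 24 h: Eef1e1 by 2.01 ± 0.13 (limma adjusted p = 9.76e-12), Aimp2 by 1.74 ± 0.11 and Aimp1 by 0.74 ± 0.10. Only Eef1e1 of these was also called at 4 h, at 1.02 ± 0.12 (adjusted p = 1.46e-06). Its group means in C57BL/6 went from 8.33 to 9.17 and then 10.2.

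Among the mitochondrial genes, Rars2, the mitochondrial arginyl-tRNA synthetase, had the largest rise. The unstimulated arrays read 5.94, 6.05 and 5.69 in C57BL/6, 6.10, 5.84 and 6.18 in B6.Sle1b, and 6.04, 5.98 and 6.11 in Sle1b.BACSlamf6-H1. The 4 h arrays lay between 6.26 and 6.58 and the 24 h arrays between 7.51 and 7.79. The 3 times did not overlap. Rars2 rose by 0.42 ± 0.06 at 4 h (limma adjusted p = 2.96e-05) and by 1.66 ± 0.07 at 24 h (adjusted p = 4.51e-15), or 3.17-fold, so that both arginyl-tRNA synthetase genes, Rars and Rars2, were called at both times.

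Tars2, for mitochondrial threonine, was measured by only 1 probe set, with the suffix x_at explained for Wars, so no second set can be compared. Tars2 differed from the late genes in that its rise was called at 4 h and no further change was called after it. Its medians were 5.56, 6.27 and 6.12, it rose by 0.78 ± 0.16 at 4 h (limma adjusted p = 0.00132), and the difference of -0.05 ± 0.17 between 4 h and 24 h was not called. Lars2 and Cars2, for leucine and cysteine, were late: at 24 h they rose by 1.08 ± 0.16 and 0.87 ± 0.16, with all 24 h arrays above all earlier ones. Pars2 (0.56), Nars2 (0.46) and Vars2 (0.43) rose by less, and the Nars2 call is lost without replicate 1 of C57BL/6 at 24 h (adjusted p = 0.0587). The call of Mars2 rests on values below background and carries no fold.

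Ears2, the mitochondrial glutamyl-tRNA synthetase, fell at 4 h. Its arrays lay between 4.09 and 5.48 in unstimulated cells, with a median of 4.71, and between 3.28 and 4.29 at 4 h, with a median of 3.74, so that the times overlapped. The fall was 0.84 ± 0.17 (limma adjusted p = 0.00083), and with the mean of all its probe sets it was 0.23. At 24 h the median was 4.40, 0.57 ± 0.18 above 4 h (adjusted p = 0.0137), a call lost (adjusted p = 0.0502) once replicate 1 of C57BL/6 at 24 h is left out. Its difference of -0.27 from unstimulated cells was not called. The 2 genes called lower at 4 h in the reported fit, Eprs and Ears2, code for the enzymes of glutamate in the cytosol and in mitochondria. Of the 4 Ears2 probe sets, 1 had the opposite sign at 4 h. More members were lower at 4 h without the dim arrays, as given below, so these genes are not a fixed set. Among the 10 pairs of a cytosolic and a mitochondrial gene that share a symbol's stem, both members were called higher at 24 h in 5 and the cytosolic one alone in the other 5. This rule leaves out Eprs, Farsa and Farsb, whose symbols do not match those of Pars2, Ears2 and Fars2. At 24 h Eprs was called lower, where Pars2 was called higher and Ears2 was not called. Farsa and Farsb were called higher and Fars2 was not called. Of all genes tested, 22.9% were called higher in that comparison. Lars and Lars2 rose by nearly the same (1.09 and 1.08), Rars by 1.17 and Rars2 by 1.66, and the pairs for methionine, asparagine and valine were also both called. Among these, the Mars2 call rests on values below background, and that of Nars2 depends on replicate 1 of C57BL/6 at 24 h. For alanine, histidine, isoleucine, serine and tryptophan the mitochondrial gene was not called: Wars rose 2.03 where Wars2 differed by 0.19 ± 0.10, and Hars rose 0.80 where Hars2 differed by -0.06 ± 0.20. The difference within a pair was not tested, since levels and spreads differ between probe sets.

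**Figure D3:**
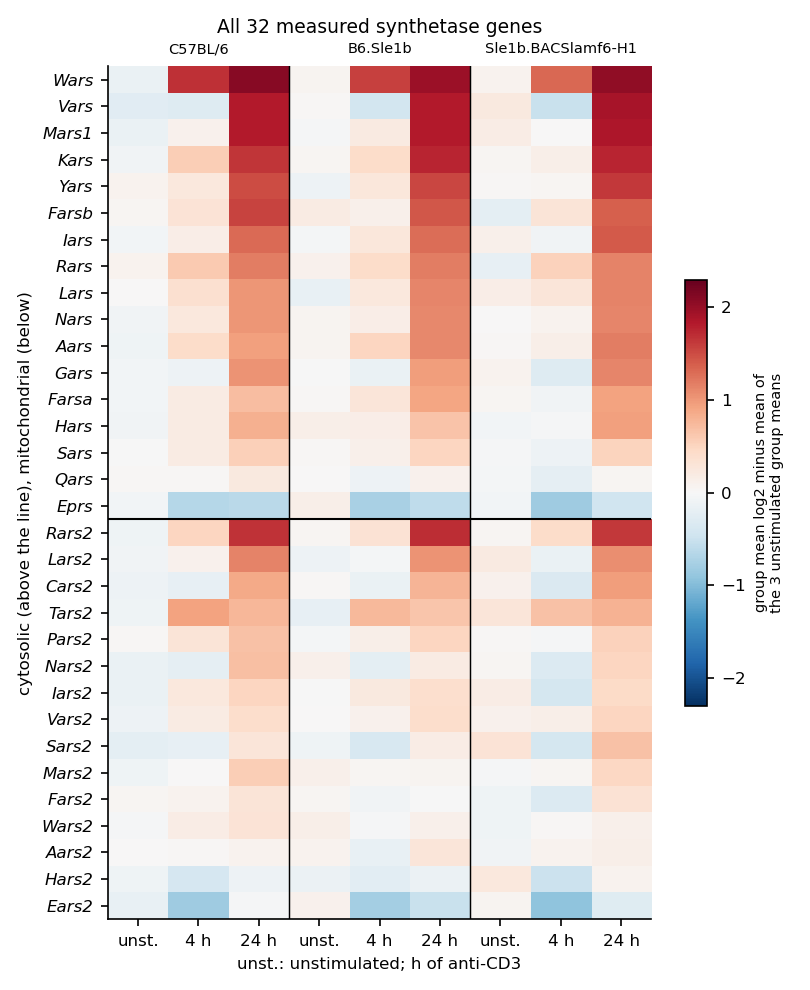
Each row is 1 of the 32 genes and each column 1 of the 9 groups, coloured by the group mean log2 intensity minus the mean of the 3 unstimulated groups (red higher, blue lower), with cytosolic genes above the line. The 24 h columns of all 3 strains are red for most cytosolic rows and paler for mitochondrial rows, and the Eprs row is blue at both times.

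The response of each class can be read per array as the mean change of its genes from the unstimulated arrays. At 24 h this was 1.12 ± 0.08 (SD, n = 8 arrays) for the cytosolic genes, from 0.99 to 1.22, and 0.47 ± 0.14 for the mitochondrial genes, from 0.23 to 0.71. At 4 h it was 0.16 ± 0.15 (SD, n = 9) and -0.04 ± 0.17, beside an SD of 0.16 and 0.23 among the unstimulated arrays. At 4 h, 4 of 9 arrays were above the highest unstimulated array (0.21) for the cytosolic genes and 0 of 9 for the mitochondrial genes; at 24 h, 8 of 8 and 7 of 8 were. On each of the 8 arrays at 24 h the cytosolic change was larger than the mitochondrial one, by 0.44 to 0.78, and on each of the 9 arrays at 4 h it was larger by 0.11 to 0.33. Mitochondrial probe sets were on average dimmer, and the part of brightness in this difference was not tested.

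**Figure D4:**
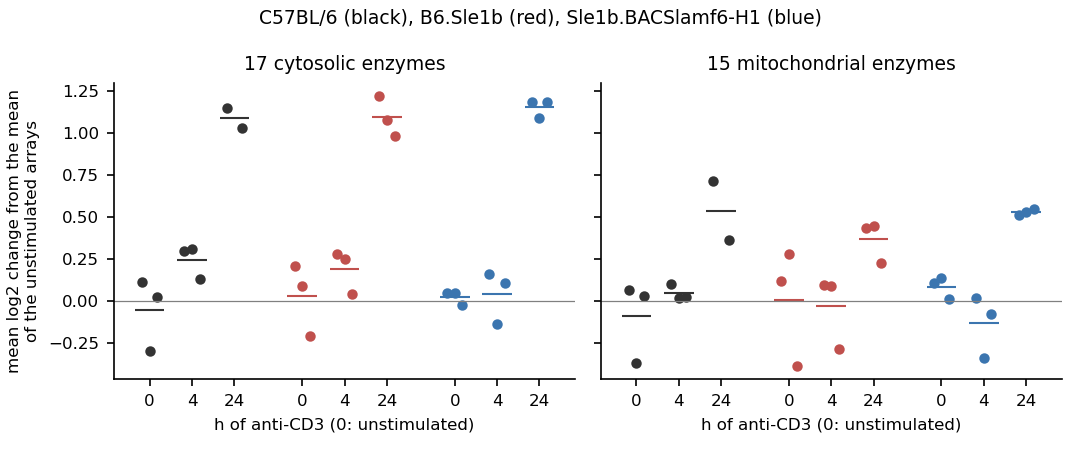
The mean log2 change of the 17 cytosolic (left) and 15 mitochondrial genes (right) from the unstimulated arrays is drawn for each biological array against hours of anti-CD3, with a line at the group mean, by strain (C57BL/6 black, B6.Sle1b red, Sle1b.BACSlamf6-H1 blue). Cytosolic values at 24 h lie between 0.99 and 1.22 in all strains, and mitochondrial ones between 0.23 and 0.71.

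The 24 h response was called in each strain by itself. In C57BL/6, 22 members rose and 1 fell, where 24.3% of all genes were called (15.7% higher, 8.6% lower). The counts were 21 and 1 in B6.Sle1b (28.2%; 14.8% and 13.4%) and 21 and 1 in Sle1b.BACSlamf6-H1 (29.1%; 17.2% and 11.9%). The 15 rising cytosolic genes and 5 mitochondrial ones (Cars2, Lars2, Pars2, Rars2 and Vars2) were called higher in all 3 strains, and Eprs lower in all 3. The share of all genes called alike in all 3 strains is not given here. It cannot exceed the smallest single-strain shares, 14.8% for higher and 8.6% for lower. For Wars the rises at 24 h were 2.25, 1.89 and 1.96 in the same order of strains. Between 4 h and 24 h, 16 members rose in C57BL/6 (18.6% of genes called, 12% higher and 6.67% lower), 17 in B6.Sle1b (24.2%, 13.1% and 11.1%) and 25 in Sle1b.BACSlamf6-H1 (24.8%, 16.9% and 7.82%), and limma called none lower. Over the mean of strains this comparison had 25 members higher and 0 lower at the same threshold (34.6% of genes called, 20.5% higher and 14.1% lower), with a median of 0.69 beside 0.02 over all genes. The count in C57BL/6 drops to 10 without replicate 1 at 24 h.

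At 4 h the single strains gave few calls: 6 higher and 1 lower in C57BL/6 (7.04% of genes called, 4.08% higher and 2.97% lower), 1 and 1 in B6.Sle1b (5.69%, 2.57% and 3.12%), and 3 and 2 in Sle1b.BACSlamf6-H1 (10.6%, 4.22% and 6.35%). Wars and Eprs were the members called in all 3 strains, Wars 3.56-fold, 2.84-fold and 2.36-fold higher and Eprs lower by 0.60, 0.87 and 0.75 in the order above. The share of all genes called alike in all 3 strains cannot exceed 2.57% for higher and 2.97% for lower, the smallest single-strain shares. The counts of calls in single strains move with single arrays: in C57BL/6 to 4, 3 and 4 without unstimulated replicate 2, 4 h replicate 2 or 4 h replicate 3, in B6.Sle1b to 5 and 4 without unstimulated replicate 2 of C57BL/6 or of B6.Sle1b, and in Sle1b.BACSlamf6-H1 to 3 without replicate 1 or 2 unstimulated or 2 or 3 at 4 h. With arrays centred on their medians there were 3 higher and 1 lower in C57BL/6 and in Sle1b.BACSlamf6-H1, and with a second quantile normalization 5 higher and 1 lower in B6.Sle1b. Without the 3 dim arrays, the mean of strains at 4 h had 8 members higher and 7 lower. The shares of all genes called in these other settings are not given here, so the counts cannot be set beside them.

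No synthetase gene was called between strains. In the 3 pairs of strains, each unstimulated, at 4 h, at 24 h and over the mean of the times, limma called 0 of the 32 genes in all 12 contrasts. Few genes of any kind were called there: between B6.Sle1b and C57BL/6 0.123%, 0.0409%, 0.0409% and 0.333% in that order, between Sle1b.BACSlamf6-H1 and B6.Sle1b 0.0819%, 0%, 0% and 0.0819%, and between Sle1b.BACSlamf6-H1 and C57BL/6 0.0585%, 0.0643%, 0.0351% and 0.228%. At an unadjusted p under 0.05 the members numbered 0, 0, 2 and 0, then 2, 0, 2 and 0, then 0, 4, 0 and 1. Of all 17097 genes, 707, 617, 805 and 873 passed that cut, then 1390, 613, 908 and 1041, then 968, 987, 392 and 1172. Over the mean of the times, differences of members lay between -0.16 and 0.14 for B6.Sle1b against C57BL/6, -0.13 and 0.30 for Sle1b.BACSlamf6-H1 against B6.Sle1b, and -0.17 and 0.25 for Sle1b.BACSlamf6-H1 against C57BL/6.

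Between B6.Sle1b and C57BL/6 the smallest p-values belonged to Mars2 (0.21) and Nars (0.14) unstimulated, Rars2 (-0.16) and Qars (-0.14) at 4 h, Mars2 and Nars2 at 24 h, and Qars (-0.11) and Pars2 (-0.14) over the mean of the times. Mars2 differed by -0.52 ± 0.15 at 24 h (limma adjusted p = 0.643), with both groups below background, and Nars2 by -0.51 ± 0.25 (adjusted p = 0.994). Nars2 is sensitive to 1 array: without replicate 1 of C57BL/6 at 24 h it differed by -0.14.

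Between Sle1b.BACSlamf6-H1 and B6.Sle1b, Lars differed by 0.32 ± 0.13 (limma adjusted p = 0.525) and Rars by -0.29 ± 0.14 (adjusted p = 0.609) in unstimulated cells. Next came Aars (-0.37) and Sars (-0.22) at 4 h, Mars2 (0.42, below background) and Hars (0.30 ± 0.14, adjusted p = 0.896) at 24 h, and Sars2 (0.30) and Lars (0.13) over the mean of the times. None of these was called by limma after adjustment.

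Between Sle1b.BACSlamf6-H1 and C57BL/6, Sars2 (0.55 ± 0.27) and Rars (-0.27) led in unstimulated cells. At 24 h Qars (-0.19) and Sars2 (0.41) led, and Sars2 was 0.90 and -0.09 without one or the other of the 2 C57BL/6 arrays. Over the mean of the times Qars differed by -0.16 ± 0.07 (limma adjusted p = 0.596) and Sars by -0.12. At 4 h Kars differed by -0.42 ± 0.16 (95% interval -0.75 to -0.10, adjusted p = 0.611) and Sars, the seryl-tRNA synthetase, by -0.31 ± 0.12 (adjusted p = 0.645).

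In that comparison at 4 h all 17 cytosolic genes lay below 0, with a median of -0.21. Of all 17097 genes, 10527 lay below 0, with a median of -0.04. Genes of one array are not independent, and replicate 2 of Sle1b.BACSlamf6-H1 at 4 h had the lowest 75th percentile of all arrays. Without the 3 dim arrays, a count added after seeing the data, 14 of the 17 lay below 0, with a median of -0.11.

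The test of whether the strains responded differently to anti-CD3 called 0 members in all 6 contrasts of responses. The share of all genes called was 0.00585% for Sle1b.BACSlamf6-H1 against B6.Sle1b at 24 h and 0% in the others. By pair of strains in the order above, 4 h before 24 h, 0, 2, 1, 2, 2 and 0 members had an unadjusted p under 0.05. In the same order 376, 821, 903, 873, 664 and 315 of all 17097 genes did. For B6.Sle1b against C57BL/6 the smallest p-values were those of Rars2 (-0.31) and Nars (-0.24) at 4 h and Mars2 (-0.72, below background) and Nars2 (-0.79) at 24 h. For Sle1b.BACSlamf6-H1 against B6.Sle1b they were those of Rars (0.40) and Farsb (0.58) at 4 h and Mars2 (0.56, below background) and Hars (0.50 ± 0.19) at 24 h. For Sle1b.BACSlamf6-H1 against C57BL/6 they were those of Nars2 (-0.39) and Wars (-0.29) at 24 h and, at 4 h, Wars (-0.59 ± 0.24, limma adjusted p = 0.874) and Kars (-0.54 ± 0.22, adjusted p = 0.874). At 4 h in the last contrast 29 of 32 members lay below 0, with a median of -0.30. Of all 17097 genes, 9181 lay below 0 there, with a median of -0.02. The median of the members went to -0.06 without the 3 dim arrays.

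**Figure D5:**
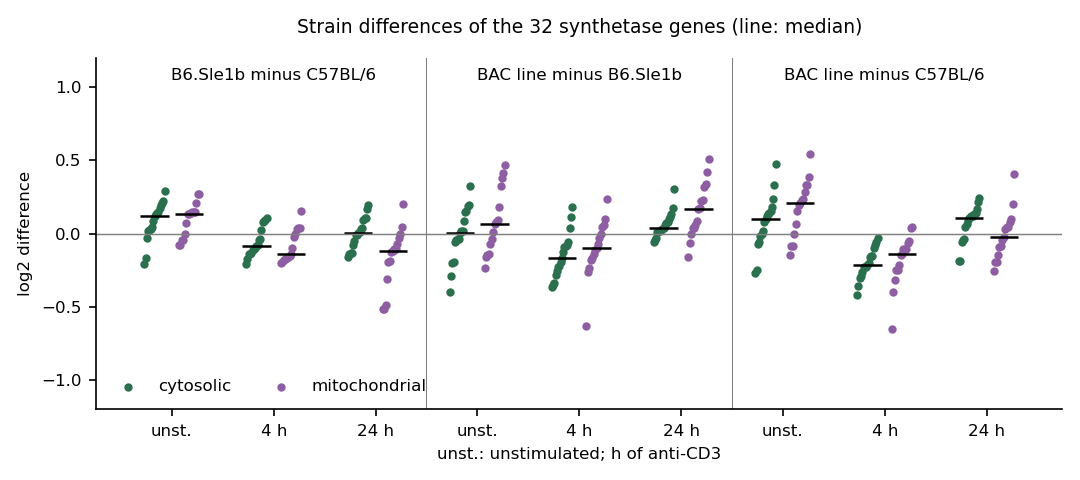
Each point is the log2 difference of 1 of the 32 genes between strains at 1 time, cytosolic in green and mitochondrial in purple, with a line at the median; the BAC line is Sle1b.BACSlamf6-H1. The medians stay within 0.21 of 0 in all 9 comparisons, and none of the points was called by limma.

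Some markers of other cells moved with the groups. The mean over 6 neutrophil markers was 3.48 in unstimulated C57BL/6 cells against 4.81 in B6.Sle1b and 5.09 in Sle1b.BACSlamf6-H1, over a range of 2.89 to 6.14 on single arrays. For 6 B cell markers it was 5.35 against 4.82 and 4.85, over 4.39 to 5.49. For 2 erythroid markers it was 7.10 in unstimulated cells and 6.33 at 24 h in C57BL/6, 7.48 and 6.73 in B6.Sle1b, and 6.55 and 5.61 in Sle1b.BACSlamf6-H1. In every group except B6.Sle1b unstimulated and at 4 h, 1 of these 2 erythroid markers was at background. Of 6 measured genes of T cell identity, Thy1 (0.36) and Cd5 (0.38) rose at 24 h, and Cd4 (-0.62), Cd3d (-0.41), Cd3g (-0.41) and Cd3e (-0.30) fell. Their part in the differences above was not tested.

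Genes that act next to the synthetases were followed through 4 lists, all chosen with earlier results of these data known. Of 10 elongation factors that take charged transfer RNA to the ribosome or work beside those that do, 0 were higher and 1 lower at 4 h and 6 were higher and 0 lower at 24 h by limma (2 and 8 at an unadjusted p under 0.05). Of all genes, 8.15% were called higher and 10.1% lower at 4 h, and 22.9% and 17.4% at 24 h. At an unadjusted p under 0.05, 4682 of all 17097 genes passed at 4 h and 7803 at 24 h. The largest rises were those of Tsfm (1.89 ± 0.11) and Gfm1 (1.54 ± 0.15), both mitochondrial, and Eefsec (1.26 ± 0.14), the factor for selenocysteine. Of 11 measured further enzymes that make or repair charged transfer RNA, 3 rose at 24 h and none fell at the limma threshold, with 6 at an unadjusted p under 0.05, where 22.9% of all genes were called higher: Aarsd1, an editing enzyme that removes wrongly attached serine from the transfer RNA for alanine, by 1.68 ± 0.14, Pstk, a kinase of the selenocysteine pathway, by 0.64 ± 0.13, and Gatc, a subunit of the mitochondrial amidotransferase, by 0.61 ± 0.09. At 4 h none of these 11 rose and 2 fell.

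The amino acid stress response, the pathway of Gcn2 and ATF4, did not move one way. Of its 15 measured genes, 1 rose and 3 fell at 4 h, and 5 rose and 4 fell at 24 h, with a median of 0.02, beside the shares of all genes just given (8.15% and 10.1%, then 22.9% and 17.4%). Ddit4, an inhibitor of the growth kinase mTORC1, was lower at 4 h (-0.62 ± 0.20) and higher at 24 h (1.22 ± 0.20, limma adjusted p = 2.97e-05). Asns, which makes asparagine, rose by 0.86 ± 0.19 at 24 h. Ppp1r15a, which codes for the subunit that helps remove the phosphate from eIF2, fell by 1.21 ± 0.13 at 4 h and 2.84 ± 0.14 at 24 h (adjusted p = 1.71e-13), with C57BL/6 means of 8.49, 7.39 and 5.87. The transcript of Atf4 itself was 0.20 ± 0.07 lower at 24 h (adjusted p = 0.0398); ATF4 is known to be controlled at translation, which arrays do not measure.

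Promoter sequences bear on these genes only as a description. Of the 32 genes, 24 had a window in the RefSeq table of mouse build GRCm38.p6, from 250 bases before to 50 after a gene's start; 8 did not (Hars, Lars, Nars, Rars, Vars, Wars, Hars2 and Pars2). The motifs, searched on both strands, were chosen after the values had been seen: TGATGNAA, the C/EBP-ATF composite through which ATF4 is known to bind, and CACGTG, the E-box known to be bound by Myc and USF. The letters of the motifs differ, and no matches overlapped in the printed stretches. TGATGNAA was in 4 of 24 (Aars, Gars, Iars and Yars, 16.7%), beside 4.51% of 27025 genes, and CACGTG in 4 of 24 (Aars, Farsb, Iars and Ears2, 16.7%), beside 8.09%. A match is not a binding site, and a window without one says only that these letters are not in it. The stretches below hold the matches that lie wholly before the start, and each comes from a gene that rose at 24 h. The matches of Yars and Ears2 and the C/EBP-ATF match of Iars lie after the start and are not printed. Capitals mark the matched letters, and a C/EBP-ATF match on the other strand appears as its reverse complement.
Aars, chr8:111033676-111033757, + strand, upstream of the start: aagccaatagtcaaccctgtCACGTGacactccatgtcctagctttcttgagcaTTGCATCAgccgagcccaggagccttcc
Gars, chr6:55037951-55037998, + strand, upstream of the start: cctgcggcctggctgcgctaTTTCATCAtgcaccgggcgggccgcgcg
Iars, chr13:49682041-49682086, + strand, upstream of the start: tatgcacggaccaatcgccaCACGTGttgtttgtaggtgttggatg
Farsb, chr1:78488911-78488956, − strand, upstream of the start: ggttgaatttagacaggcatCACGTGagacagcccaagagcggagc
In Aars the E-box starts at position -146 and the C/EBP-ATF match at -112 from the start, with another match at 10. Its intensities lay between 6.44 and 7.40 in unstimulated cells, 7.04 and 7.77 at 4 h and 8.06 and 8.45 at 24 h. Genes without either motif in the window, such as Kars, Mars1 and Rars2, rose as well (1.72, 1.84 and 1.66), and Eprs, which fell, holds neither. Ears2, which was lower at 4 h, holds CACGTG at position 22. Any link between motifs and changes was not tested.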

How the data were processed

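Each of 28 samples of total RNA was labelled with biotin and read on 1 single-colour Affymetrix array (HT MG-430 PM). The deposited values are linear intensity values, made by the authors with RMA (background correction, quantile normalization and summary of probes) per the submitters' processing notes; its version is not given in the sources used here. The log2 of each value was taken, with no pseudocount and no filter. Probe sets were named from the platform's annotation: of 45141, 28898 have 1 symbol, 551 several and 15692 none, and only the first kind was used. Each of 17097 genes was tested through its brightest set by mean log2 over the 26 biological arrays; 16 members have more than 1 of 57 sets. The 95th percentile of 23 non-specific control sets gave each array's background.

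All 26 arrays entered 1 limma 3.58.1 fit (R 4.3.3) of 9 group means with 30 contrasts and eBayes, and p-values were adjusted by Benjamini-Hochberg over all genes and called under 0.05. The steps were tested on simulated data. The mean of 3 strains weights the strains equally. Whether the biological replicates are different animals is not said in the labels, and the p-values rest on their spread, which can hold technical error; no 2 arrays were identical. The number of arrays limits the precision.

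The members, lists and motifs were chosen with earlier results of these data known. The rule named, for the mean of strains, the 5 largest rises and falls among called members, for contrasts between strains the 2 smallest p-values where under 2 were called, members whose probe sets disagree in sign, and the 3 largest called genes of each related list; other members are given by counts or in passing. Alternatives covered normalization, array brightness and weights, moderation, the background filter, the groups in the fit, the probe sets, the technical arrays, the replicate number, the dim arrays and each array left out.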

Additional observations from a re-analysis of the deposited data

How the results depend on the processing

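Across 38 other settings (26 of them leaving out 1 array), the members called over the mean of strains numbered 23 to 27 at 24 h (24 as reported), 23 to 29 between 24 h and 4 h (25) and 7 to 16 at 4 h (10). Array weights, whose fit gave a convergence warning, moved the most counts: at 4 h to 16 over the mean of strains, 14 in C57BL/6 (from 7), 11 in B6.Sle1b (from 2) and 3 in Sle1b.BACSlamf6-H1 (from 5). They also gave 5 calls for B6.Sle1b against C57BL/6 and 5 for Sle1b.BACSlamf6-H1 against B6.Sle1b, both unstimulated, and 4, 1 and 2 for the differences in response of B6.Sle1b against C57BL/6 at 4 h and 24 h and of Sle1b.BACSlamf6-H1 against B6.Sle1b at 24 h, where the reported count was 0. With array brightness as a covariate C57BL/6 had 12 calls at 4 h, B6.Sle1b 8, and Sle1b.BACSlamf6-H1 against C57BL/6 at 4 h 1. With only the groups compared in the fit, C57BL/6 had 1 call at 4 h and 14 at 24 h (from 23). Centring on the median gave 4 in C57BL/6 at 4 h. In B6.Sle1b at 4 h a second quantile normalization gave 6, the technical arrays as further arrays 4, and the fit without the 3 dim arrays 8. The shares of all genes called under these settings are not given here, and the cause of these moves was not tested. With 1 array left out, calls in C57BL/6 ran from 3 to 8 at 4 h, 17 to 24 at 24 h and 10 to 17 between them; in B6.Sle1b from 2 to 5, 18 to 22 and 13 to 18; in Sle1b.BACSlamf6-H1 from 3 to 7, 18 to 22 and 21 to 26; over the mean of strains from 9 to 12, 23 to 26 and 24 to 27; and in all contrasts between strains and of responses they stayed at 0. The labels do not say whether replicate numbers pair the samples. Same-numbered arrays of different groups had a median correlation of their deviations of 0.06 over 100 pairs, from -0.81 to 0.82. Arrays with other numbers had one of -0.03 over 200 pairs, from -0.82 to 0.83. These pairs include arrays of different strains, so they cannot decide whether numbers pair the times within a strain. A random block on strain and replicate number had a correlation of 0.15 and moved the calls in B6.Sle1b at 4 h to 5. With the replicate number as a fixed block the mean of strains at 24 h had 24. Of the 54 single-gene values picked by the naming rule above, 1 reversed, Sars2 between Sle1b.BACSlamf6-H1 and C57BL/6 at 24 h (-0.089 without replicate 2 of C57BL/6, 0.901 without replicate 1, 0.41 as reported). Another 5 of these passed the threshold only with array weights. Single-gene values outside that rule are not in this tally, and some of their calls changed, as given with those genes. Genes above background on all arrays numbered 29, or 31 against the median of the controls.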

Other observations

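The 2 arrays labelled technical belong to C57BL/6 at 24 h, and the labels do not say which RNA they repeat. They read 7.73 and 7.58 for Wars, 8.86 and 8.71 for Mars1, 8.92 and 8.68 for Eprs, and 7.51 and 7.62 for Rars2, beside biological means of 7.76, 8.83, 8.79 and 7.65.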
